A study of Mus musculus with 6 samples.

Results

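The genes described here are 10 genes whose proteins build or hold together the contractile filaments of smooth muscle cells: Acta2, Tagln, Cnn1, Cald1, Lmod1, Actg2, Myh11, Myl9, Tpm1 and Tpm2. They were chosen by name, not by their values, as rows of the 2 deposited tables of bulk RNA-seq, and they are 10 of the 16279 genes that either table lists. The first group is mESC, embryonic stem cells of male F1 embryos of the cross C57BL/6J × CAST/EiJ, 3 clones kept in 2i medium with LIF. The second is CPCC, cardiac precursor cell cultures grown from the same 3 clones through embryoid bodies with ascorbic acid, then kept in medium with EGF and Fgf2 and collected at the fourth passage. CPCCs are mixed cultures, and each group has 3 libraries of poly(A)+ RNA. The libraries go by their column names, S01 to S03 being mESCs and S04 to S06 CPCCs, and as no replicate number stands with them, none could be tied to its clone and the tests ignore that the groups share clones.

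Smooth muscle cells shorten when myosin filaments pull on actin filaments, after myosin light chain kinase has phosphorylated the regulatory light chain of myosin. Acta2 and Actg2 encode the smooth muscle actins and Myh11 the smooth muscle myosin heavy chain. Myl9 encodes a regulatory light chain, Tpm1 and Tpm2 encode tropomyosins that lie along actin, Cald1 encodes caldesmon and Cnn1 calponin, which bind actin and restrain the motor, Tagln encodes the actin-binding protein transgelin (SM22), and Lmod1 encodes leiomodin, which starts new actin filaments. Acta2 and Tagln appear early when a cell takes up the smooth muscle state, Cnn1 and Cald1 later, and Lmod1, Actg2 and Myh11 mark mature smooth muscle. Acta2 and Tagln are also made by myofibroblasts and by the early heart, and Myl9, Tpm1, Tpm2 and a form of Cald1 are made by many adherent cells.

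Many of these genes are controlled by serum response factor (SRF), which binds the CArG box, made of CC, 6 bases that are each A or T, and GG. The pieces below show every CArG box found upstream of a member, each with 10 bases on either side and the box in capitals, so that the letters SRF would meet can be read. RefSeq promoter windows (GRCm38.p6, 250 bases before to 50 bases after a transcript start) were at hand for 7 members. Tagln, Actg2 and Myh11 had none. Positions count from the RefSeq start, and the box reads the same way on either strand.
Myl9, exact box at -161, chr2:156775293-156775322, plus strand: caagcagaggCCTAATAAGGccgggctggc
Myl9, box with 1 mismatch at -99, chr2:156775355-156775384, plus strand: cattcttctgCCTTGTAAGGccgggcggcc
Acta2, box with 1 mismatch at -84, chr19:34255438-34255467, minus strand: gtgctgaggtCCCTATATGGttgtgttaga
Acta2, box with 1 mismatch at -34, chr19:34255388-34255417, minus strand: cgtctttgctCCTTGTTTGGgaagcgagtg

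An exact box was found in 1 of the 7 members (Myl9), beside 1.81% of all 27025 genes with a window. With 1 mismatch allowed among the 6 central bases, 2 of the 7 (Myl9 and Acta2) held a box, beside 11.3% of all genes. The Acta2 pieces lie upstream of the gene as the tables bound it, but inside the first exon of a longer GENCODE transcript. Exact boxes also stood upstream of Acta1, Actc1, Srf, Vcl and Fhl1, which belong to the families and lists described below. Those shown for contrast stood upstream of the genes for a widespread relative of Acta2 and a relative of Cnn1.
Actg1, exact box at -90, chr11:120348566-120348595, minus strand: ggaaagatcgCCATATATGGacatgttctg
Cnn2, exact box at -56, chr10:79988534-79988563, plus strand: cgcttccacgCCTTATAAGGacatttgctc

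A second short element, CATTCC, is the M-CAT motif that TEAD factors bind, and it was searched on both strands after the values were known. It was found in 4 of the 7 members, beside 16.6% of all genes. Each of these members reads GGAATG on the gene's strand, in capitals here with 12 bases on either side.
Acta2, at -146, chr19:34255502-34255531, minus strand: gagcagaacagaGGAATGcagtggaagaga
Tpm1, at -56, chr9:67049252-67049281, minus strand: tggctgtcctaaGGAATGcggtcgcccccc
Lmod1, at -130, chr1:135324671-135324700, plus strand: ccaagattccctGGAATGtcctcaagtttc
Cald1, at -153, chr6:34598339-34598368, plus strand: gagcatgcctagGGAATGacaggcatctgc
The Acta2 and Tpm1 pieces again lie inside an exon of a longer GENCODE transcript. A match is a description of the letters, not a binding site, and elements farther away, or in introns, were not searched.

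What the authors deposited are expected counts per gene with no normalization. The mESC libraries hold 6442639 to 6907330 counts and the CPCC libraries 8468819 to 11436062, S04 being the deepest. Levels below are in CPM, the count of a gene on a scale of 1000000 counts per library, scaled with edgeR's TMM factors. The groups were compared by edgeR's quasi-likelihood test over 12471 genes listed in both tables, with Benjamini-Hochberg adjustment over all of them. A table lists only genes with at least 10 counts over its 3 libraries, so for a gene missing from the mESC table a fold is given as a bound against 3 counts per library, on average 0.448 CPM in mESCs. All 8 embryonic stem cell markers checked were lower in CPCCs, beside 29.7% of all genes tested. Nkx2-5, a defining gene of cardiac progenitors, was listed for CPCCs only, with 1.59, 0 and 0.917 CPM in S04, S05 and S06. It is 1 of 15 cardiomyocyte markers, which are given below and moved in both directions.

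All 10 genes were listed for CPCCs. Of these, 6 were tested and 6 were higher in CPCCs, where 31.7% of all genes tested were, and 0 were lower (0 also with DESeq2 and at an unadjusted p under 0.05), where 29.7% of all genes were. The other 4 (Tagln, Cnn1, Actg2 and Myh11) were listed for CPCCs only, as were 15.5% of the genes in either table. In 6 of the 6 tested members every CPCC library lay above every mESC library, which held for 35.3% of all genes tested. Acta2 and Lmod1 passed the filter on low counts only through the CPCC libraries. Their selection thus favoured a higher level in CPCCs, and their calls are not independent of it. Cald1, Myl9, Tpm1 and Tpm2 passed the filter in mESCs as well. In bulk RNA, more cells that express a gene and more RNA of it per cell cannot be told apart.

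Acta2 (chromosome 19, 34240336 to 34255374) had 0.927, 0.441 and 1.32 CPM in the 3 mESC libraries, from 6, 3 and 9 counts, and 6331, 4508 and 3070.1 CPM in S04, S05 and S06. The groups were far apart, with S04 the highest CPCC library and S06 the lowest. On the log2 scale the difference was 12.31 ± 0.46 (SE; adjusted p = 9.64e-07), rank 2 of all genes tested. Tagln (chromosome 9, 45929628 to 45936059) was missing from the mESC table and had 4379, 3943 and 2663 CPM in CPCCs. It was therefore at least 8176-fold higher there, in the same order of libraries as Acta2. The exons of Tagln overlap those of Pcsk7 on the opposite strand over 108 bases, and whether the counting used the strand is not given in the sources used here.

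Cnn1 (chromosome 9, 22099253 to 22109222) had 323, 275 and 187 CPM in CPCCs and was not listed for mESCs, a difference of at least 585-fold. Cald1 (chromosome 6, 34598504 to 34775470) was present in mESCs at 55.9, 71.8 and 66.3 CPM and stood at 2908, 2028 and 1561 CPM in CPCCs. The log2 fold change was 5.07 ± 0.27 (SE; adjusted p = 2.10e-06). These gene-level counts do not separate the smooth muscle form of caldesmon from the form of other cells.

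Among the markers of mature smooth muscle, Lmod1 (chromosome 1, 135324813 to 135368066) stood in mESCs at 1.85, 3.24 and 0.731 CPM, and in CPCCs at 127, 87.3 and 64.1 CPM. The mESC values rest on 12, 22 and 5 counts, and the groups did not overlap (log2 fold change 5.57 ± 0.46 SE; adjusted p = 1.57e-05; 6.17 without S02). Actg2 (chromosome 6, 83512909 to 83536252) had 444, 413 and 265 CPM in CPCCs, at least 836-fold above mESCs. Myh11 (chromosome 16, 14194527 to 14291409), the gene most closely tied to smooth muscle cells, had only 35.8, 26.8 and 14.1 CPM, from 360, 221 and 123 counts. Its bound was correspondingly lower, at least 57.1-fold above mESCs.

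Of the filament genes that other cells share, Myl9 (chromosome 2, 156775464 to 156781658), which holds the exact CArG box shown above, had 3.40, 4.12 and 3.07 CPM in mESCs against 1140.1, 1182 and 791 CPM in CPCCs. It was the member whose libraries differed least in CPCCs, and it differed by 8.19 ± 0.27 on the log2 scale (SE; adjusted p = 7.86e-07). Tpm1 (chromosome 9, 67022593 to 67049214) was already at 114, 115 and 110.3 CPM in mESCs and reached 5628, 3509 and 2799 CPM in CPCCs (5.13 ± 0.28 on the log2 scale, SE; adjusted p = 2.37e-06). Tpm2 (chromosome 4, 43513726 to 43523555) was near the lower end in mESCs, at 2.16, 2.50 and 2.63 CPM, against 456, 284 and 199 CPM in CPCCs (7.00 ± 0.38 on the log2 scale, SE; adjusted p = 2.32e-06). With S04 the highest and S06 the lowest, Tpm1 and Tpm2 followed the same order as Acta2.

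**Figure D1:**
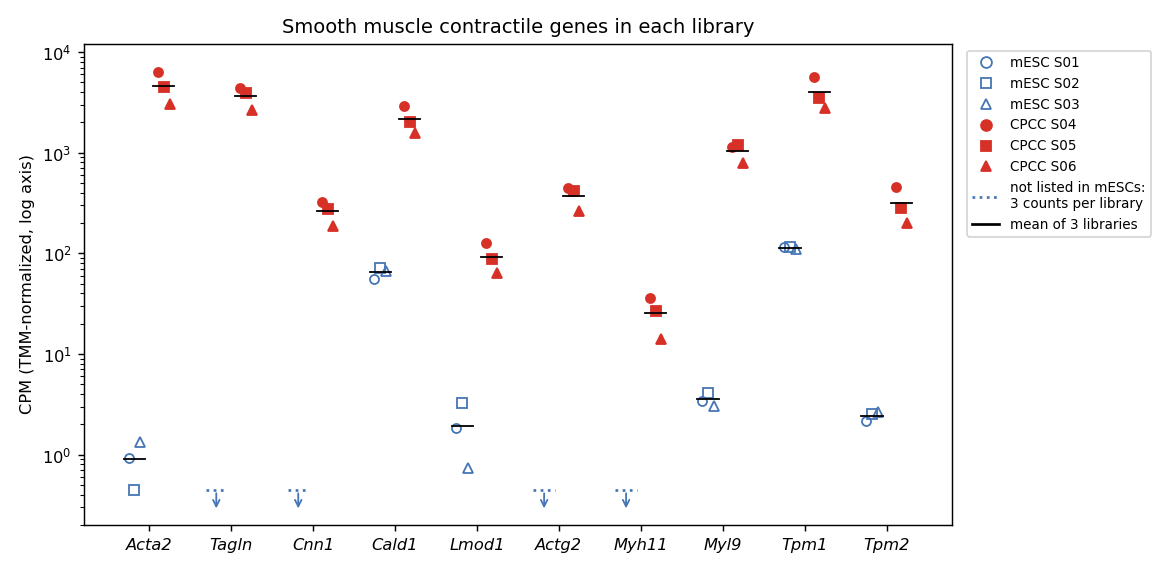
Level of each of the 10 genes (CPM, log axis) in the mESC libraries (open blue symbols) and the CPCC libraries (filled red symbols), with black lines for means of 3 libraries and dotted lines with arrows at 3 counts per library where the mESC table lacks the gene. Acta2 runs from 0.441 to 1.32 CPM in mESCs and from 3070.1 to 6331 CPM in CPCCs, while Cald1 and Tpm1 start between 55.9 and 115 CPM in mESCs.

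Added together, the 10 genes made up 179, 197 and 184 CPM in mESCs against 21771, 16256 and 11614 CPM in CPCCs. The CPCC mean of 16547 ± 5085 CPM (SD, n = 3) was 88.6-fold the mESC mean of 187 ± 9.35 CPM (SD, n = 3). The log2 sums did not overlap, with p = 0.10 in a two-sided exact permutation test, the smallest that 3 against 3 libraries can give. In CPCCs the 10 genes took 1.92%, 1.58% and 1.20% of all counts of S04, S05 and S06, and Acta2, Tagln and Tpm1 gave between 73.5% and 75.0% of that amount. In mESCs the 10 genes took between 0.0180% and 0.0197%.

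To compare the genes with each other, CPM was divided by exon length in kilobases (the union of GENCODE vM21 exons). On this scale the order in CPCCs began with the early markers: Acta2 at 2111 ± 744 CPM per kb (SD, n = 3) ranked 4 among the 15263 CPCC genes with a length, and Tagln at 1842 ± 449 ranked 8. Myl9 followed at 893 ± 184 CPM per kb, rank 21, and Tpm1 at 613 ± 227, rank 43. Actg2 at 240.3 ± 61.4 CPM per kb, Cald1 at 179.9 ± 56.8, Tpm2 at 108 ± 44.9 and Cnn1 at 95.7 ± 25.1 took ranks 146 to 493. Lmod1 stood at 23.5 ± 8.04 CPM per kb, rank 2380, and Myh11 was last with 3.36 ± 1.43, rank 8744.

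Not every step in this order exceeded the spread between libraries. All CPCC libraries of Tagln lay above all of Myl9, those of Tpm1 above those of Actg2, those of Cnn1 above those of Lmod1, and those of Lmod1 above those of Myh11. The values of Acta2 and Tagln overlapped across libraries, as did those of Myl9 and Tpm1, of Actg2 and Cald1, and of Cald1 and Tpm2, although in 3 of 3 libraries the first of each pair was above the second. Tpm2 and Cnn1 changed places, with Tpm2 above Cnn1 in 1 of 3 libraries.

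**Figure D2:**
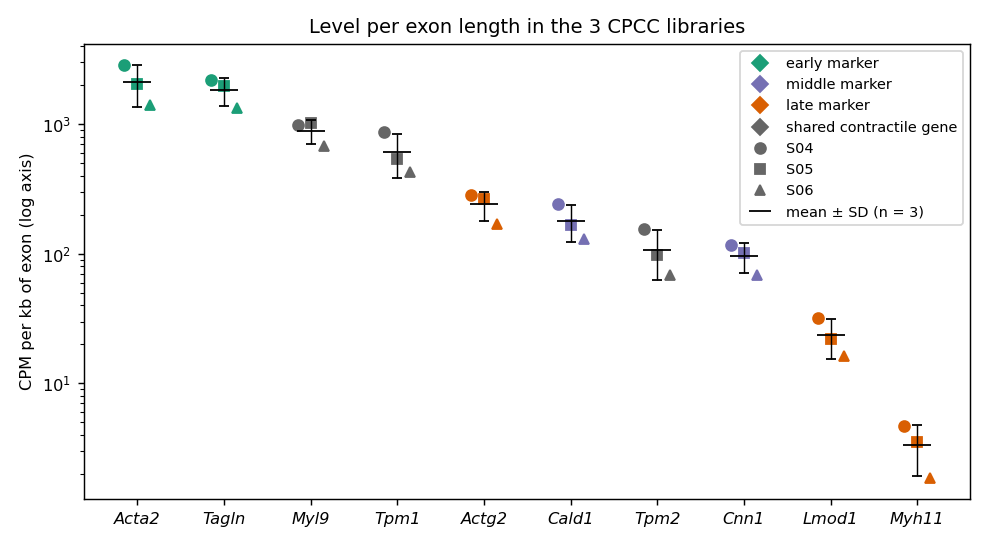
Level per exon length (CPM per kb, log axis) of each gene in the 3 CPCC libraries, ordered by mean and coloured by stage, with mean ± SD (n = 3). The early markers Acta2 and Tagln lead at 2111 and 1842 CPM per kb, and the late markers lie at 240.3 (Actg2), 23.5 (Lmod1) and 3.36 (Myh11).

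Summed per stage, the early markers had 5086, 4036 and 2737 CPM per kb in S04, S05 and S06, and the late markers had 322, 291 and 188. The late markers stood at 6.33%, 7.21% and 6.89% of the early ones, a mean of 6.81 ± 0.443% (SD, n = 3), and the middle markers Cnn1 and Cald1 at 6.99 ± 0.295% (SD, n = 3). Actg2 carried most of the late sum: without it, a choice made after the values were seen, the late markers came to 0.673 ± 0.0459% of the early ones (SD, n = 3). Actg2 and Acta2 proteins are nearly the same and their coding sequences similar, so reads shared between actin genes could have been split by the counting, and the Actg2 level, like those of the other actins, is uncertain for that reason. Relative to Acta2 per length, Myh11 was at 0.163%, 0.172% and 0.133% in the 3 libraries and Lmod1 at 1.12 ± 0.0418% (SD, n = 3).

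Ratios between single markers differed in how far they varied over the libraries. Cnn1 was 5.35%, 5.07% and 5.11% of Tagln in S04, S05 and S06, although both were lower in S06 than in S04. Cald1 was 10.96%, 8.49% and 9.68% of Tagln, and Cnn1 was 4.09%, 4.90% and 4.90% of Acta2. Tagln was 76.4% of Acta2 in S04 and 96.6% and 95.8% in S05 and S06.

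In 9 of the 10 genes the level was highest in S04, which is also the deepest library, and lowest in S06, an order that 23.9% of all genes of the CPCC table followed, and Myl9 was the exception. When CPM was computed on library totals without TMM factors, 8 of the 10 kept this order, beside 15.3% of all genes of the table. The ratio of S04 to S06 ran from 1.44 in Myl9 to 2.54 in Myh11, with a median of 1.92 over the 10 genes beside 0.987 over the genes tested. The coefficient of variation over the CPCC libraries was between 20.7% and 42.6%, with a median of 32.9%, beside 22.3% over the genes tested. No test was made of this order, since the 3 libraries have no labelled difference.

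Markers of other cell types also differed between the CPCC libraries. The summed 9 fibroblast markers, led by Col1a1 and Col1a2, had 7276, 9228 and 6022 CPM in S04, S05 and S06 against 9.89 to 14.0 CPM in mESCs, with Tcf21 in neither table. The summed 15 cardiomyocyte markers had 529, 156 and 183 CPM against 98.4 to 113 in mESCs. Of these markers 7 were tested, of which 2 were higher in CPCCs, 1 lower and 4 not called, beside 31.7% higher and 29.7% lower of all genes tested. The higher ones, Tnnt2 and Myl4, passed the filter only through CPCCs. Myl4 (adjusted p = 0.0457) missed the threshold when a library was left out (adjusted p up to 0.202). Another 6 were listed for CPCCs only, beside 15.5% of the genes in either table, and Tnni3 for mESCs only. Without Actc1 the cardiomyocyte sum was 248, 70.5 and 97.8 CPM in S04, S05 and S06, so that S05 and S06 did not exceed mESCs. The mESC sums were mostly Ttn, at 75.7, 78.3 and 64.5 CPM in S01, S02 and S03. Ttn was lower in CPCCs, at 43.8, 12.7 and 22.7 CPM in S04, S05 and S06 (adjusted p = 0.00892). The 8 pericyte markers, which include Mcam, summed to 549, 536 and 385 CPM against 26.3 to 32.6, and Pdgfrb had 88.9, 125 and 65.0 CPM. S04, the library with the highest contractile gene levels, thus also had the highest cardiomyocyte and pericyte marker sums and not the highest fibroblast marker sum. The endothelial sum, given below, was highest in S04 as well. Pericyte and endothelial sums fell from S04 to S05 to S06, the order of most contractile genes, while the cardiomyocyte sum was lowest in S05.

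The remaining lists had lower sums in CPCCs than in mESCs. Of the embryonic stem cell markers, 8 of 8 were called lower, beside 29.7% of all genes tested. They summed to between 5304 and 5568 CPM in mESCs and to 122, 224 and 286 CPM in S04, S05 and S06. The 9 skeletal muscle markers summed to 232 to 284 CPM in mESCs against 86.7, 67.6 and 102 CPM in CPCCs, but the mESC sum was Mylpf alone, which went from 265 ± 28.7 to 6.26 ± 3.07 CPM (SD, n = 3). Acta1 and Myog were listed for CPCCs only, and Myod1, Myf5, Myf6, Ckm, Tnnt3 and Tnni2 were in neither table. The 7 endothelial markers summed to 92.3 to 101 CPM in mESCs against 60.4, 46.0 and 35.0 CPM in CPCCs, a difference that rests on Pecam1, at 91.1 ± 4.46 and 4.44 ± 1.46 CPM (SD, n = 3). Without Pecam1 the sum was 3.24 to 7.06 CPM in mESCs and 28.9 to 56.5 CPM in CPCCs, with Cdh5, Kdr, Emcn and Flt1 listed for CPCCs only and Tie1 in neither table. What part other cells of these mixed cultures have in the levels of the contractile genes was not tested.

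**Figure D3:**
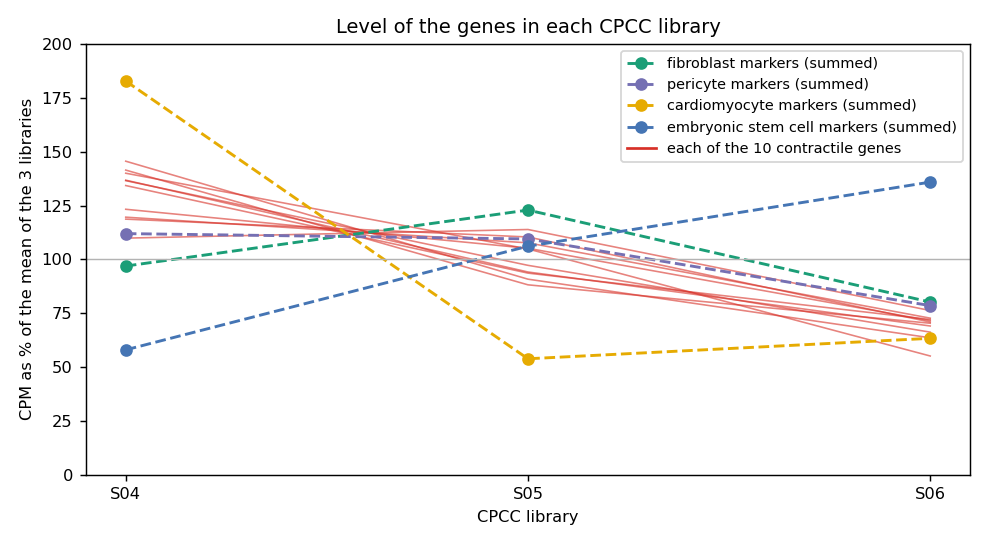
CPM in each CPCC library as a percent of the mean of the 3 libraries, for each of the 10 contractile genes (red lines) and for the summed markers of 4 other cell types (dashed lines). The contractile genes are highest in S04, apart from Myl9, and lowest in S06, cardiomyocyte markers go from 529 CPM in S04 to 156 and 183 CPM, and embryonic stem cell markers are lowest in S04 (122 CPM) and highest in S06 (286 CPM).

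Most of these genes belong to families whose other members are made in many cells, so the share of a family taken by the smooth muscle gene was measured, per exon length. The actin pair Acta2 and Actg2 went from 0.0273 ± 0.0127% of the 6 actin genes in mESCs to 35.2 ± 4.94% in CPCCs (SD, n = 3). Per length, Acta2 thus stood beside the cytoplasmic actins, at 31.5 ± 4.76% of the family against 31.2 ± 2.62% for Actb and 31.5 ± 2.66% for Actg1 (SD, n = 3). Tagln took 89.3 ± 2.60% of the transgelins in CPCCs (SD, n = 3), where Tagln2 was the main member in mESCs. Myl9 went from 1.68 ± 0.411% to 75.2 ± 5.65% of the regulatory light chains (SD, n = 3). Lmod1 went from 6.60 ± 3.96% to 61.6 ± 6.64% of the leiomodins and tropomodulins (SD, n = 3). On counts without length Lmod1 took 44.3%, 41.3% and 30.7% in S04, S05 and S06, below Tmod3 in S04 and S06. Myl9 took 44.4%, 59.9% and 51.9% on that scale, below Myl12a in S04.

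Among the calponins and the myosin II heavy chains the smooth muscle gene stayed the smaller part. Cnn1 reached 9.43 ± 1.53% of the calponins in CPCCs (SD, n = 3), below Cnn2 at 42.9 ± 1.42% and Cnn3 at 47.6 ± 2.95%. Myh11 reached 2.87 ± 1.05% of the myosin II heavy chains (SD, n = 3), beside 68.2 ± 8.17% for the non-muscle gene Myh10. Tpm1 and Tpm2 together went from 6.43 ± 0.714% to 42.2 ± 7.46% of the tropomyosins (SD, n = 3), from 35.7% in S06 to 50.3% in S04, with Tpm4 at 54.0 ± 6.93%. On counts without length, which give more weight to the long Tpm1, they were the larger part in every CPCC library, at 71.0%, 61.9% and 57.6%. The test was made on shares of the family's counts without length. In each of the 7 families the CPCC libraries lay above the mESC libraries. Each gave p = 0.10 in a two-sided exact permutation test, and 0.10 after Benjamini-Hochberg adjustment over the 7, the smallest possible. Tagln, Cnn1 and Myh11 are not listed for mESCs and entered there as 0, so in their families the outcome was fixed in advance. Actg2 also entered as 0, and Acta2 and Lmod1 passed the filter only through CPCCs.

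**Figure D4:**
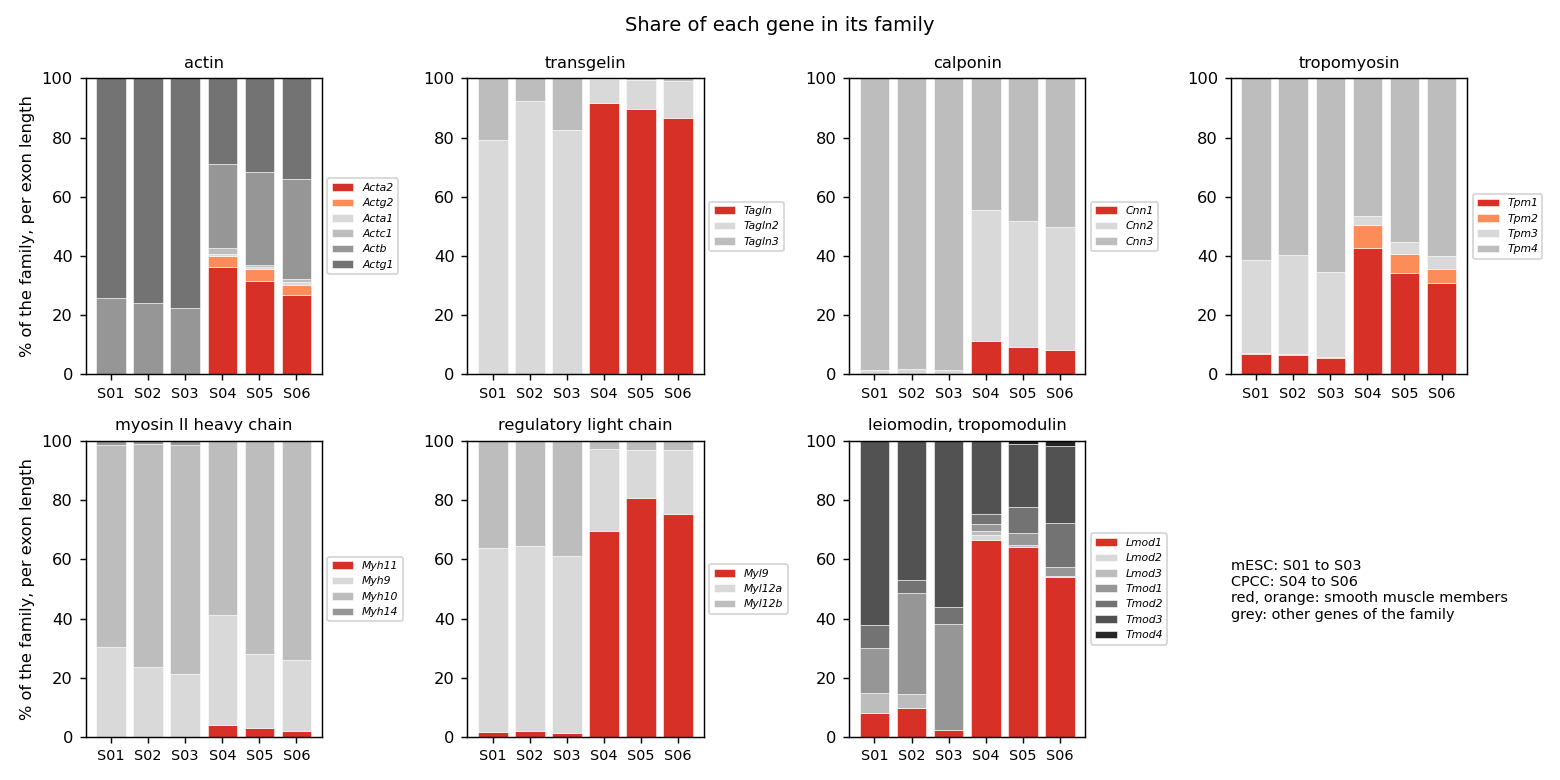
Share of each gene in its family per exon length (%, stacked bars) in each library, with the smooth muscle genes in red and orange and their relatives in grey. In CPCCs Tagln takes 89.3% of its family and Myl9 75.2% on average, while Cnn1 takes 9.43% and Myh11 2.87%.

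The relatives themselves moved in both directions. Among the actins, Actb (log2 fold change 2.50, adjusted p = 3.13e-06) and Actg1 (0.85, adjusted p = 0.000871) were higher in CPCCs. The striated muscle actins Acta1 and Actc1 were listed for CPCCs only, and Actc1 had 281, 85.4 and 85.6 CPM in S04, S05 and S06. Tagln2 was higher (2.89, adjusted p = 5.03e-06), while Tagln3 (1.07, adjusted p = 0.177) did not pass the test with all libraries and did without S04 (1.55, adjusted p = 0.00499). Cnn2 was higher by 5.92 (adjusted p = 9.64e-07), from 17.6 ± 3.19 to 1063 ± 159 CPM (SD, n = 3), and Cnn3 gave 0.11 (adjusted p = 0.527).

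Of the other tropomyosins, Tpm4 was higher (2.31, adjusted p = 6.22e-06) and Tpm3 lower (-0.51, adjusted p = 0.0135), although Tpm3 missed the threshold without S02 (-0.47, adjusted p = 0.0660). The non-muscle myosin heavy chains Myh9 (2.52, adjusted p = 4.64e-05) and Myh10 (2.18, adjusted p = 9.98e-06) were higher. Myh14 was lower (-1.97, adjusted p = 0.0304) from at most 2.34 CPM, and it missed the threshold without S01, S02, S03, S04 or S05 (adjusted p 0.0785, 0.0624, 0.0837, 0.0936 and 0.102), while its change was -2.60 without S06 (adjusted p = 0.0221).

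The regulatory light chain genes Myl12a (1.23, adjusted p = 0.00352) and Myl12b (-0.98, adjusted p = 0.00233) moved in opposite directions, but they are near-identical neighbours whose reads the counting could split, and the direction of each is uncertain. Tmod2 (2.76, adjusted p = 0.000289) and Tmod3 (1.12, adjusted p = 0.00243) were higher. Tmod1 gave -0.97 (adjusted p = 0.113), and -1.35 without S01 (adjusted p = 0.0204). Lmod2 and Tmod4 were listed for CPCCs only, with at most 1.79 CPM in a library, and Lmod3 was removed by the filter on low counts.

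A list of 16 other smooth muscle genes held cytoskeletal, adhesion and channel genes. Of these 12 were tested and 12 were higher in CPCCs, beside 31.7% of all genes tested, and Synpo2, Itga8, Tgfb1i1 and Pgm5 were listed for CPCCs only, beside 15.5% of all genes in either table. Over the 12 tested, the median log2 fold change was 3.28, beside 0.031 over all genes tested. Nexn, Kcnmb1 and Synm, however, passed the filter only through CPCCs, which favoured a higher level there. Among the 12 tested, the largest change was that of Nexn, which encodes the actin-binding protein nexilin, from 1.10 ± 0.192 to 73.5 ± 26.0 CPM (SD, n = 3; log2 fold change 6.05, adjusted p = 3.45e-06). Kcnmb1, a subunit of the calcium-activated potassium channel of smooth muscle, changed by 4.69 (adjusted p = 0.000564), and by 5.95 without S01, and the adhesion molecule Mcam by 3.90 (adjusted p = 3.24e-06). Tgfb1i1, which encodes the focal adhesion protein Hic-5, had 205, 183 and 143 CPM in CPCCs, at least 395-fold above mESCs. Of the remaining genes fixed as markers of mature smooth muscle, Des had 47.0, 19.2 and 24.1 CPM in CPCCs (log2 fold change 3.60, and 4.24 without S03) and Smtn 40.1, 58.2 and 48.4 CPM, and neither shared the order of libraries seen in Acta2.

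A list of 13 genes that set the phosphorylation of the light chain had 11 tested genes. Of these 3 were higher and 1 lower, neither share above the 31.7% and 29.7% of all genes, and 7 did not pass the test, with log2 fold changes from -0.48 to 1.59. Further, Prkg1 and Ppp1r14a were listed for CPCCs only. Mylk, the gene of myosin light chain kinase, was at 1.08, 0.294 and 0.157 CPM in mESCs against 6.76, 22.4 and 12.95 CPM in CPCCs (log2 fold change 4.76, adjusted p = 0.000459), and 5.90 without S01. Mylk passed the filter only through CPCCs, so its selection favoured a higher level there. Its highest library was S05, where Acta2 was highest in S04, and per length Mylk ranked 11345 in CPCCs, below Myh11. Rock2, a kinase that inhibits the phosphatase, was higher by 1.46 (adjusted p = 0.00211), and Dapk3, another light chain kinase, by 0.92 (adjusted p = 0.00791).

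Prkg1, the cGMP-dependent kinase that relaxes smooth muscle, had 149, 68.4 and 56.7 CPM in CPCCs, at least 204-fold above mESCs. Ppp1r14a, the inhibitor of the phosphatase, had 1.19, 0.849 and 0.458 CPM. Calm2, named because it completes the calls, was lower (-0.51, adjusted p = 0.0272). It missed the threshold without S01, S02, S03, S05 or S06 (adjusted p 0.0925, 0.0534, 0.0861, 0.108 and 0.0756). The count of lower genes was 2 without S04, where Ppp1cb also passed (-0.66, adjusted p = 0.00178), and 0 without any of the others. The gene of the kinase Rock1 gave 0.17 (adjusted p = 0.697), and -0.34 without S04 (adjusted p = 0.175).

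The next list held SRF, which reads the CArG box, and factors that act with it or on the same genes. Of 12 genes, 11 were tested, 7 were higher in CPCCs, beside 31.7% of all genes, 2 were lower, beside 29.7%, and 2 did not pass the test. Elk4 and Gata6 passed the filter only through CPCCs, so their selection favoured a higher level there. Srf itself was higher, at 42.5, 54.1 and 42.2 CPM in mESCs against 71.2, 86.3 and 68.4 CPM in CPCCs (log2 fold change 0.70, adjusted p = 0.00999). Its actin-sensing coactivators Mkl1 (1.72, adjusted p = 0.000163) and Mkl2 (1.34, adjusted p = 0.000356) were higher. Myocd, which encodes the coactivator myocardin found in heart and smooth muscle, was listed for CPCCs only, at 1.99, 3.64 and 1.38 CPM from 20, 30 and 12 counts, at least 5.21-fold above mESCs.

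The ETS factors Elk3 (5.21, adjusted p = 3.50e-05) and Elk4 (3.36, adjusted p = 0.000520), which compete with the coactivators for SRF, were also higher, by 6.06 for Elk3 without S03 and 3.97 for Elk4 without S01. Elk1 gave 0.65 (adjusted p = 0.0650), and 0.71 (adjusted p = 0.0419) over genes with at least 10 counts in every library. Elk3 had 170.1, 112 and 83.3 CPM in S04, S05 and S06, in the same order as the contractile genes. Tead1, which binds the CATTCC element shown above, was higher by 1.83 (adjusted p = 1.90e-05), at 336, 297 and 273 CPM in CPCCs. The heart and smooth muscle factor Gata6 was higher by 3.17 (adjusted p = 0.0113), with 40.1 CPM in S04 and 7.52 and 7.33 CPM in S05 and S06. Without S04 its change was 1.88 (adjusted p = 0.0284), and without S03 it was 4.45 (adjusted p = 0.0101).

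The factors that were lower are also known from stem cells. Klf4, which represses smooth muscle genes, fell from 396 ± 15.9 to 51.7 ± 19.9 CPM (SD, n = 3; log2 fold change -2.94, adjusted p = 2.56e-05). Klf5 fell from 281 ± 30.5 to 24.7 ± 9.77 CPM (SD, n = 3; -3.51, adjusted p = 2.05e-05). Foxo4, which binds myocardin, gave -0.39 (adjusted p = 0.216).

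**Figure D5:**
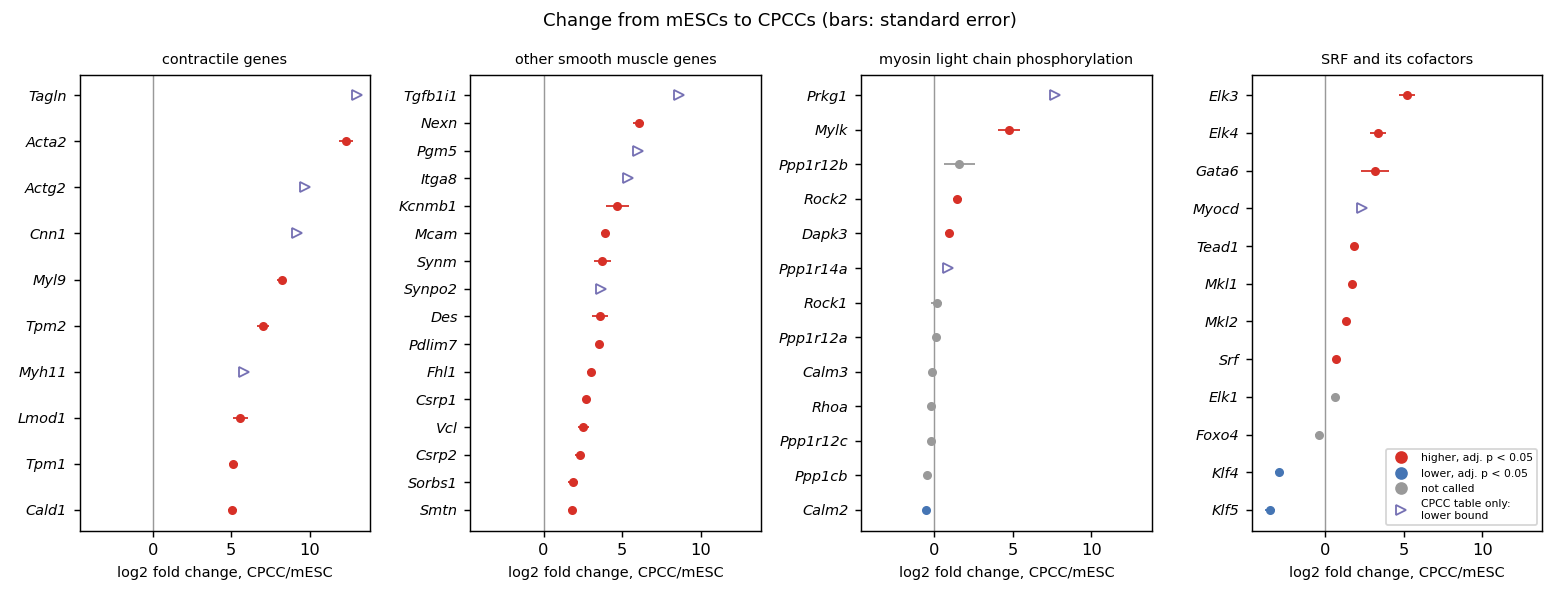
Log2 fold change from mESCs to CPCCs with its standard error for the contractile genes and 3 further lists, red where higher and blue where lower at an adjusted p under 0.05, grey where neither, and open triangles for lower bounds of genes the mESC table lacks. The tested contractile genes lie between 5.07 and 12.31, while genes of light chain phosphorylation run from -0.51 (Calm2) to 4.76 (Mylk) and Srf lies at 0.70.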

How the data were processed

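Poly(A)+ RNA of 3 mESC and 3 CPCC samples was made into cDNA with the SMART-Seq v4 kit and into libraries with Nextera XT. The authors deposited estimated counts (expected counts) of reads per gene, not normalized, in 1 table per cell type. The submitters' processing notes name STAR 2.7 and mm10. The counter and its strand setting are not given in the sources used here. Since 17.9% to 21.5% of a library's values have decimals, counts were rounded. Columns were assigned to groups by the name of their table, and nothing ties them to replicate numbers. Both groups come from the same 3 clones. P-values measure the spread between these libraries.

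Genes in both tables (13001) were filtered with filterByExpr and tested with edgeR 4.0.16 in R 4.3.3 (TMM, quasi-likelihood test, adjusted p under 0.05). Shared-gene library sizes were used. Bounds and floors take 3 counts per library and cover counting error only. DESeq2 1.42.0, other scalings and filters, missing genes set to 0 or 3 counts, and leaving out each library were the alternatives. Exon lengths came from GENCODE vM21, which need not be the annotation used for counting, and promoters from RefSeq. On simulated counts for 13001 genes, edgeR recovered 168 of 200 changed genes, with 134 of 134 changed at least 4-fold. Genes named were the 10 members, their families, all SRF factors, and of the other lists the 3 largest called changes and the largest bound, and a few chosen after their values were seen. The members and lists were chosen with earlier results of these data known. From the light chain phosphorylation list, 1 gene was left out and is not reported here. Allele-specific, single-cell and chromatin data were not analysed here.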

Additional observations from a re-analysis of the deposited data

How the results depend on the processing

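No member lost its call or changed direction under any alternative that tested it: 88 of 88 values kept both, and the largest adjusted p from edgeR or DESeq2 was 0.000305. With genes missing from a table set to 0 or to 3 counts, 10 members were tested and 10 were higher, against 6. The 4 added members are not listed for mESCs, so the filled values fixed their outcome. Of the 13630 genes tested in these fits, 8848 (at 0 counts) and 9011 (at 3 counts) were called in either direction. With at least 10 counts in every library 4 were tested and 4 were higher, since Acta2 and Lmod1 dropped out. The number of light chain phosphorylation genes that were lower, 1, became 2 with missing genes at 3 counts and ran from 0 to 2 when a library was left out. Ppp1cb also passed as lower with upper-quartile normalization (adjusted p = 0.0448) and on library totals without TMM (adjusted p = 0.0387). The ratio of late to early markers, 6.81%, was 5.96% without the length correction and 0.673% without Actg2, the latter added after the data were seen. Members with a CArG box went from 1 to 2 when 1 mismatch was allowed. Under a 2-fold threshold Actg1, Calm2, Dapk3, Mkl2, Myh14, Myl12a, Myl12b, Rock2, Srf, Tmod3 and Tpm3 lost their calls. Calls over all genes tested were 7656, and 7893 with DESeq2. Counts of 3 to 22 per library limit the mESC values of Acta2 and Lmod1, and depth limits the folds of the 4 members missing there to bounds. No paired analysis was possible because the columns carry no replicate numbers.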
